A study of Mus musculus with 56 samples.

Results

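The genes described here are 9 genes of pulmonary surfactant and of the alveolar type 2 cell that makes it: Sftpa1, Sftpb, Sftpc, Sftpd, Lamp3, Napsa, Slc34a2, Lpcat1 and Abca3. They were chosen by name from 20018 genes that had a probe on the array, through the RefSeq accession each probe carries. Sftpb and Sftpd had 2 probes each and the other 7 members had 1, and for each gene the probe with the brightest mean signal of the sample was used, which was the same probe in every tissue. The values are log2 ratios of the sample (Cy5 dye) over a universal mouse reference RNA (Cy3 dye), so 0 means equal signal and 1 means that the signal of the sample was 2-fold that of the reference.

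All animals were adult male MutaMouse, about 14 weeks old, a transgenic strain that carries a bacterial reporter gene for scoring mutations, and all were gavaged daily for 28 days and sampled 72 hours after the last dose. The vehicle group (D0) was given olive oil only. The dosed groups were given the polycyclic aromatic hydrocarbon chrysene (Chr) in that oil, at 17.5 mg/kg/day in D1, 50 mg/kg/day in D2 and 150 mg/kg/day in D3. From 19 mice, 56 arrays were made, 1 for each mouse and tissue. D0, D1 and D3 held 5 mice in each tissue, while D2 held 4 in liver and forestomach and 3 in lung. Each RNA came from a random section of the organ, so the values are averages over all cell types in that section, and a lower share of type 2 cells and less RNA per type 2 cell cannot be told apart.

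Surfactant is a film of phospholipid and protein that lowers surface tension at the air and water boundary of the alveolus and keeps it from collapsing. Type 2 cells assemble it in lamellar bodies, secrete it, take up and recycle part of it, and also serve as progenitors of the flat type 1 cells. The hydrophobic proteins SP-B (Sftpb) and SP-C (Sftpc) spread the lipid film, whereas the collectins SP-A (Sftpa1) and SP-D (Sftpd) bind microbes and take part in surfactant turnover. Abca3 pumps phospholipid into lamellar bodies, Lamp3 is a protein of the lamellar body membrane, Napsa is an aspartic protease that processes the SP-B precursor, Lpcat1 makes the saturated phosphatidylcholine of surfactant, and Slc34a2 is the sodium-dependent transporter that takes up phosphate released from phospholipid. The transcription factor NKX2-1 is required for lung development and activates surfactant protein genes.

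RefSeq promoters (build GRCm38.p6) were listed for 6 of the 9 members, namely Sftpa1, Sftpb, Lamp3, Slc34a2, Lpcat1 and Abca3. The 250 bases before the start of each were searched on both strands for CTCAAG, a core of the NKX2-1 site, and for TATAAA, the TATA box. CTCAAG occurred in 2 of the 6, Sftpa1 and Sftpb, and in 13.3% of all 32851 promoters. TATAAA occurred in 1 of the 6, Sftpa1, and in 12.4% of all promoters. A match is a description of the window and no bound site. The promoters of these 2 surfactant protein genes are printed from 5′ to 3′, with the matches in capitals, because they are the ones that hold the NKX2-1 core. They lie on the plus strand at chr14:41131538-41131787 (Sftpa1) and chr6:72304360-72304609 (Sftpb).
Sftpa1: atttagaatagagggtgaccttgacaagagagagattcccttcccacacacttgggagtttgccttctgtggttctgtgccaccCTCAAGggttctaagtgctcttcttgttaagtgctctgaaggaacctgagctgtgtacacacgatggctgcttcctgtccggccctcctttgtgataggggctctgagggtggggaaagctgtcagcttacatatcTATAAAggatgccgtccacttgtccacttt
Sftpb: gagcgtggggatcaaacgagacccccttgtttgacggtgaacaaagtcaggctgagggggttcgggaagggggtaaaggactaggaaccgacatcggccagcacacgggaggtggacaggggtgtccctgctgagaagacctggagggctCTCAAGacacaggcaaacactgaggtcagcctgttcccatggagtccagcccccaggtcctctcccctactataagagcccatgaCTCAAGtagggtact
In Sftpa1 the CTCAAG match covered bases -166 to -161 and the TATAAA match bases -30 to -25, counted from the start. In Sftpb the CTCAAG matches covered bases -100 to -95 and -15 to -10. Nkx2-1 itself, the gene of the factor, had a Cy5 signal well above background on 18 of 18 lung arrays and on 0 of 19 liver and 0 of 19 forestomach arrays.

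The Cy5 signal was well above background at 47.6% to 55.2% of probes in lung, 33.2% to 45.2% in liver and 18.1% to 50.2% in forestomach. In forestomach the share was 39% or more on the arrays of slide 3 and 33.4% or less on the other arrays. All 9 member probes were well above background on all 18 lung arrays, and none of their spots was saturated. All 18 further type 2 genes of a marker list (among them Etv5, Lyz2, Cxcl15 and Hc) were also well above background on every lung array.

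The first comparison was between the tissues of the vehicle mice. Each slide held arrays of a single tissue, so tissue and slide cannot be told apart in it. All 9 members were higher in lung than in liver and than in forestomach, and the 9 genes fall into those that the other tissues barely showed and those that the other tissues also measured. By limma across all probes (adjusted p at most 0.05 and at least 1.5-fold, the call used for every comparison between groups), 9 of 9 members were called higher in lung than in liver, where 46% of probes were called in either direction and 24.9% were called higher in lung. Against forestomach 9 of 9 were called higher, where 37.6% were called and 19.3% were called higher in lung. The members are known markers of lung, so these counts check the tissues and are no discovery.

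Sftpc gave log2 ratios of 7.67, 7.86, 8.41, 8.48 and 8.80 in the 5 vehicle lungs. In vehicle liver it lay between 0.09 and 0.25 and in vehicle forestomach between -0.10 and 0.31, with 0 of 5 arrays well above background in each. The lung groups and the others did not overlap. The difference was 8.07 ± 0.16 (SE, n = 5 and 5; adjusted p = 1.51e-40 by limma) against liver and 8.11 ± 0.16 (adjusted p = 2.27e-39) against forestomach. The SE and p of every tissue comparison came from a single fit of all 56 arrays, with a spread per probe shared by the tissues. For Sftpc that spread takes in liver and forestomach arrays at background, whereas its residual SD within lung was 0.40.

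Sftpa1, Sftpb and Slc34a2 showed the same split. Sftpa1 lay between 6.59 and 7.42 in vehicle lung and at or below 0.62 in the other vehicle tissues, a difference of 6.77 ± 0.13 against liver and 7.05 ± 0.13 against forestomach (SE; adjusted p = 4.06e-41 and 1.35e-40 by limma). Sftpb lay between 6.64 and 6.99 in vehicle lung and differed by 6.73 ± 0.11 from liver and 6.67 ± 0.11 from forestomach. Slc34a2 lay between 4.44 and 5.17 in vehicle lung and differed by 4.88 ± 0.11 from liver and 4.78 ± 0.11 from forestomach. Over all doses, these 4 probes (Sftpc included) were well above background on 0 or 1 of 19 arrays in liver and likewise in forestomach, so their signal there has only an upper bound.

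For the surfactant proteins the ratio scale gave smaller folds than the Cy5 signal alone. For Lamp3 the order depended on the Cy5 scale, with 23-fold by ratio, 15.9-fold by normalized Cy5 and 23.6-fold by scanned Cy5 against liver, and 17.5-fold, 14-fold and 24.7-fold against forestomach. It did so for Napsa against forestomach as well, with 41.5-fold, 38-fold and 109-fold on the same scales. The Cy3 channel carried the same reference RNA on every array, yet the median Cy3 signal of the Sftpc probe was 1529 in lung, 51 in liver and 40 in forestomach, and that of the Sftpa1 probe was 652, 47 and 38. The Cy5 signal of Sftpc had a median of 400311 in lung and 74 in liver. Bounds were taken from Cy5 alone, with a dim spot raised to the lowest signal that still counted as above background, and the lower value over normalized and scanned signals is given. Vehicle lung exceeded vehicle liver by at least 5020-fold for Sftpc, 1100-fold for Sftpa1, 829-fold for Sftpb, 36.7-fold for Slc34a2 and 17.2-fold for Lpcat1. The fitted ratios gave 268-fold, 109-fold, 106-fold, 29.3-fold and 9.61-fold for the same 5 genes. Against forestomach the bounds were at least 5130-fold for Sftpc, 1150-fold for Sftpa1 and 34.5-fold for Slc34a2. No dyes were swapped, so single-channel folds are open to dye bias.

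**Figure D1:**
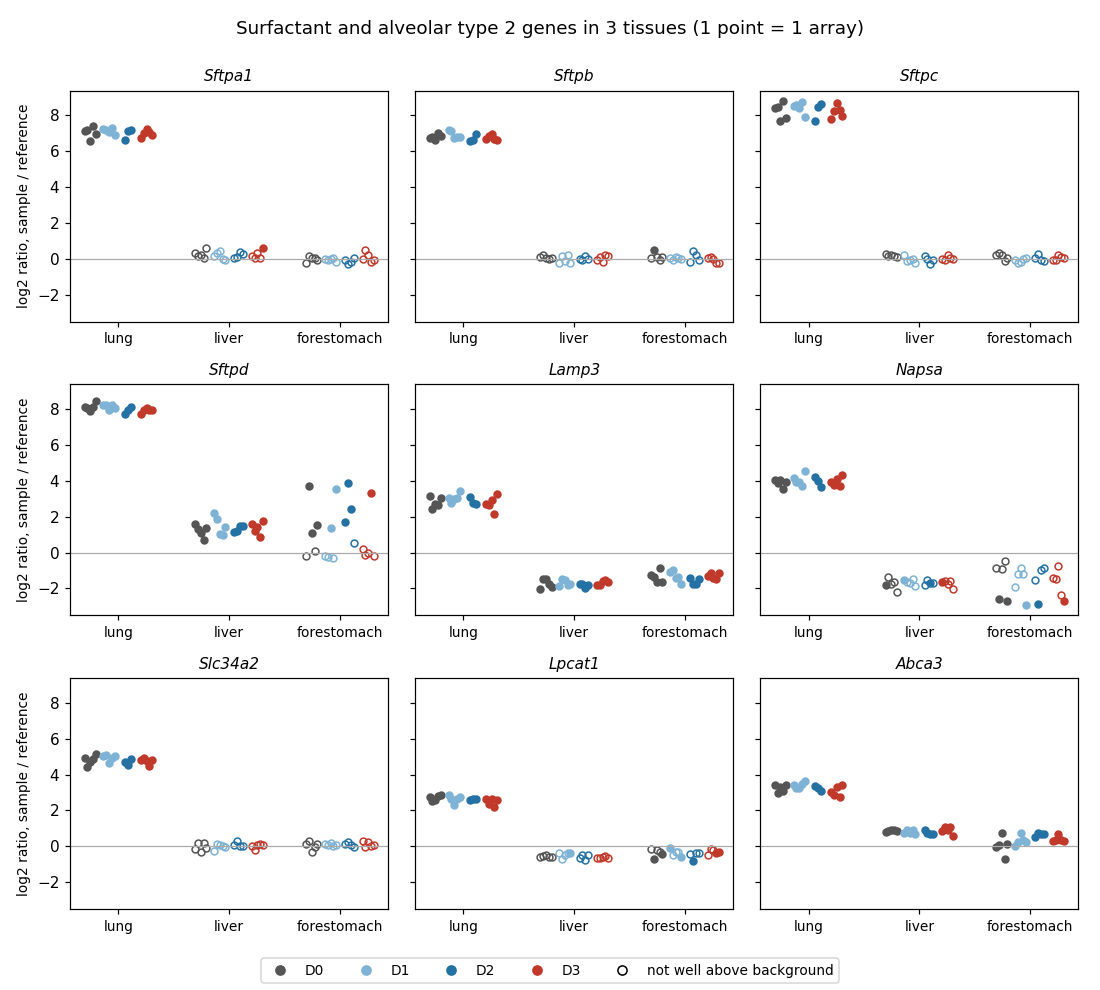
Log2 ratio of sample over reference (y axis) for each of the 9 genes in lung, liver and forestomach (x axis), with 1 point for each of the 56 arrays, coloured by dose group and open where Cy5 was not well above background. In every panel all lung points lie above all points of the other tissues, and Sftpd in forestomach spreads from -0.27 to 3.90.

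The other members were measured outside lung to different degrees. Sftpd, the collectin SP-D, was well above background on 19 of 19 liver arrays with a median log2 ratio of 1.37, and on 9 of 19 forestomach arrays. In vehicle lung it was 7.91, 8.04, 8.12, 8.13 and 8.43. The vehicle difference was 6.90 ± 0.57 (SE) from liver and 6.88 ± 0.57 from forestomach (adjusted p = 3.15e-15 and 1.04e-14 by limma). The SE of Sftpd was the largest of the members in both comparisons. Its reference spot was above background on only 2 of 19 liver and 4 of 19 forestomach arrays, so its ratio there is set against a dim reference.

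Lamp3 and Abca3 were well above background on all 19 arrays of both other tissues. Lamp3 lay between 2.43 and 3.14 in vehicle lung, between -2.05 and -1.46 in vehicle liver and between -1.63 and -0.84 in vehicle forestomach. Abca3 lay between 3.00 and 3.44 in vehicle lung, between 0.80 and 0.91 in vehicle liver and between -0.71 and 0.73 in vehicle forestomach. The lung differences from liver and forestomach were 4.52 ± 0.16 and 4.13 ± 0.16 for Lamp3 and 2.38 ± 0.14 and 3.21 ± 0.14 for Abca3 (SE, each called by limma).

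Napsa, the protease, and Lpcat1, the acyltransferase, were mostly too dim outside lung. In vehicle liver Napsa was well above background on 1 of 5 arrays and Lpcat1 on 0 of 5, and in vehicle forestomach each was on 2 of 5. The fitted differences of lung from liver and forestomach, 5.63 ± 0.34 and 5.38 ± 0.34 for Napsa and 3.26 ± 0.10 and 3.06 ± 0.10 for Lpcat1 (SE), are therefore set largely against signals at background and are no exact sizes. Their reference spots were above background on all arrays of both tissues, and the negative ratios there (medians of -1.68 and -1.39 for Napsa, -0.57 and -0.35 for Lpcat1) set a dim sample against a measured reference.

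Between vehicle liver and vehicle forestomach, 5 members could be tested and 1 was called, where 41% of probes were called. Abca3 was higher in liver by 0.83 ± 0.14 on the log2 scale (SE; adjusted p = 2.65e-06 by limma), and by 1.68 ± 0.28 with Cy5 alone and 2.26 ± 0.61 with median centring, so its size depended on the normalization. Lamp3 was lower in liver by 0.39 ± 0.16 (log2 difference -0.39, adjusted p = 0.0275), under the 1.5-fold limit. With Cy5 alone the sign of Lamp3 turned to 0.74 ± 0.28 (adjusted p = 0.0280), and 2 members were called. Sftpd, Napsa and Lpcat1 differed by -0.02 ± 0.57, -0.26 ± 0.34 and -0.20 ± 0.10 and were not called. As each slide held a single tissue, these differences cannot be told apart from differences between slides.

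The second comparison was between doses within lung, where the question was whether chrysene shifted genes of the type 2 cell. No member was called at any dose. At D3 the 9 log2 fold changes against vehicle ran from -0.22 (Lpcat1) to 0.09 (Napsa), with a median of -0.05. By limma 0 of 9 members were called at D3, where 0.127% of 31448 probes were called, and the smallest adjusted p was 0.317. At D1 and at D2 0 of 9 were called, where 0% of probes were called, and in the fitted dose trend 0 of 9, where 0.169% were called. At an unadjusted p of 0.05 the count was 0 of 9 at D1, D2 and D3, beside 5.88%, 6.12% and 16.2% of probes, and 2 of 9 for the trend, beside 17.3%. The D1, D2 and D3 mice each overlapped the 5 D0 mice for all 9 genes, a description with no share over all probes beside it.

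The collectin Sftpd had lower group means at D2 and D3 than at D0 and D1. Its log2 ratios were 7.91, 8.04, 8.12, 8.13 and 8.43 at D0, and 7.95, 8.04, 8.21, 8.24 and 8.24 at D1. They were 7.73, 7.97 and 8.11 at D2, and 7.73, 7.92, 7.94, 7.95 and 8.07 at D3. The D3 values all lay below the third of the D0 values, but 4 of 5 lay above the lowest. The D3 change was -0.20 ± 0.10 (SE, 95% interval -0.41 to 0.01; adjusted p = 0.328 by limma), and the trend over doses came to -0.23 ± 0.09 from D0 to D3 (unadjusted p = 0.0221, adjusted p = 0.220). The second Sftpd probe gave -0.29 ± 0.10 at D3 (adjusted p = 0.200). With Cy5 alone and slide as a block, a setting chosen after the values were seen, the D3 change was -0.52 ± 0.13 (adjusted p = 0.0407), still under the 1.5-fold limit, whereas median centring gave 0.08.

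Lpcat1, which makes saturated phosphatidylcholine, was 2.53, 2.58, 2.77, 2.79 and 2.87 at D0 and 2.20, 2.35, 2.59, 2.63 and 2.65 at D3. Mice 17 and 19 gave the lowest D3 values and lay below all D0 mice, while the other D3 mice lay among them. The D3 change was -0.22 ± 0.11 (SE, 95% interval -0.45 to 0.00; adjusted p = 0.317), and the trend was -0.21 ± 0.10 (unadjusted p = 0.0402, adjusted p = 0.265).

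Sftpc, the most specific product of type 2 cells, was 7.79, 7.95, 8.24, 8.32 and 8.68 at D3, within the D0 range given above. Its D3 change was -0.05 ± 0.23 (SE, adjusted p = 0.946 by limma). With Cy5 alone it was -0.26 ± 0.09 (adjusted p = 0.133), and with slide as a block as well -0.26 ± 0.09 (adjusted p = 0.0809). Sftpb, which lay between 6.64 and 6.99 at D0 and between 6.65 and 6.98 at D3, differed by -0.03 ± 0.11 and Sftpa1 by -0.04 ± 0.14 at D3 (adjusted p = 0.919 and 0.920). Sftpa1 was at -0.25 ± 0.13 with Cy5 alone and at -0.23 ± 0.10 with slide as a block as well (adjusted p = 0.289 and 0.146), whereas Sftpb was at 0.02 ± 0.20 and 0.08 ± 0.13. The second Sftpb probe gave -0.04 ± 0.13. The mean Cy3 signal, the denominator of the ratios, was 2230 at D0 and 1840 at D3 for Sftpc and 824 and 684 for Sftpa1. It was 554 and 418 for Sftpd and 680 and 713 for Sftpb. The part of the reference channel in these dose changes was not tested.

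The lamellar body genes overlapped between D0 and D3, with some D3 mice outside the D0 range. Abca3 was 3.00, 3.08, 3.28, 3.43 and 3.44 at D0 and 2.74, 2.88, 3.05, 3.33 and 3.42 at D3, a change of -0.16 ± 0.13 (SE, adjusted p = 0.565 by limma). Lamp3 was 2.43, 2.65, 2.74, 3.03 and 3.14 at D0 and 2.17, 2.65, 2.71, 2.94 and 3.29 at D3, a change of -0.05 ± 0.18 (adjusted p = 0.932). Mouse 19 was the lowest lung array for Lamp3, Abca3 and Lpcat1. Napsa lay between 3.53 and 4.53 over all lung arrays and Slc34a2 between 4.44 and 5.17, and their D3 differences were 0.09 ± 0.15 and -0.07 ± 0.12 (SE).

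At D1, 8 of the 9 members lay above vehicle, with changes from -0.06 (Lpcat1) to 0.25 (Lamp3) and a median of 0.12. At D2, with 3 mice, 3 lay above and 6 below, with changes from -0.19 (Sftpd) to 0.07 (Napsa). The smallest adjusted p was 0.895 at D1 and 0.883 at D2. The 95% intervals of the D3 changes of all 9 members lay within the 1.5-fold limit in either direction in the fit of the deposited ratios. Some other settings gave intervals that reached past it, such as those of Sftpd with Cy5 alone (-0.53 ± 0.18, SE) and Sftpc without mice 17 and 19 (-0.11 ± 0.28). In the deposited ratios the widest, that of Sftpc, ran from -0.54 to 0.44. At D1 the intervals of Sftpc and Lamp3 reached 0.68 and 0.63 and so include a 1.5-fold rise.

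**Figure D2:**
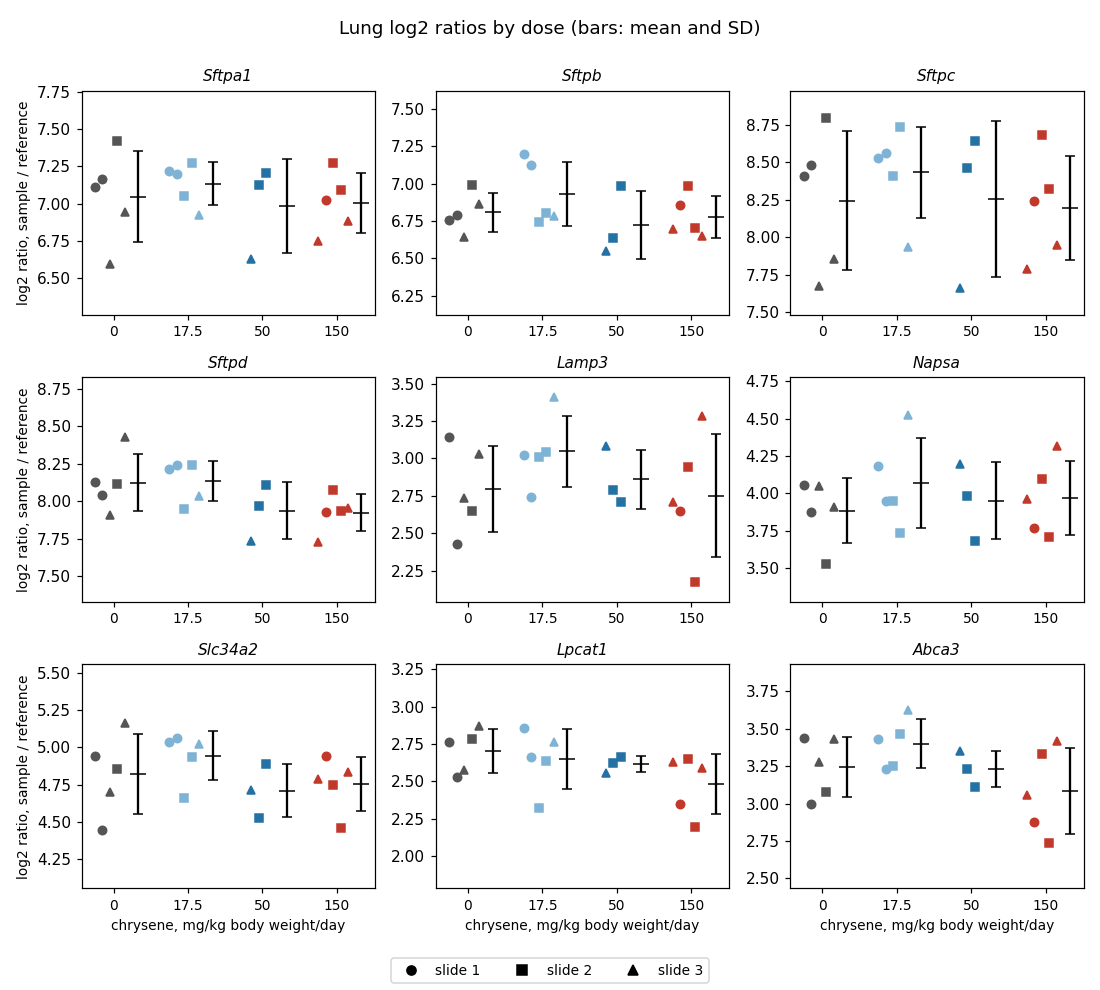
Lung log2 ratio of sample over reference (y axis, panels of equal span) against the dose of chrysene in mg/kg/day (x axis, doses evenly spaced) for the 9 genes, with 1 point per mouse, shaped by slide, and the mean and SD of each group as a bar. The D3 points overlap the D0 points in every panel, and for Sftpc the 6 triangles (slide 3) lie at 7.66 to 7.95, below all other points.

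**Figure D3:**
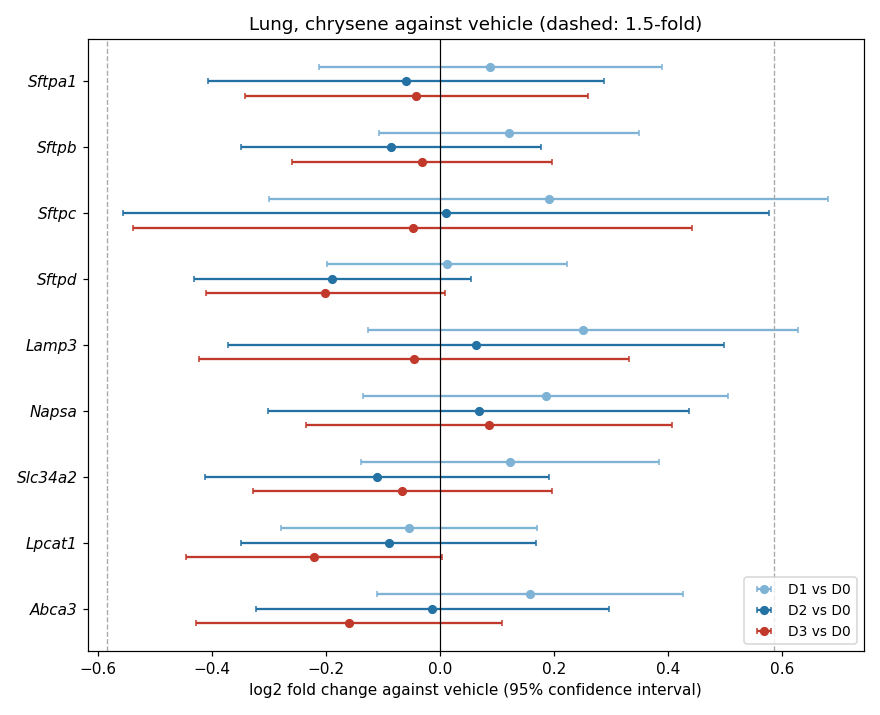
Log2 fold change against vehicle in lung (x axis) with its 95% confidence interval for each gene (y axis) at D1, D2 and D3, with dashed lines at 1.5-fold. The intervals of D3 all cross 0 and lie inside the dashed lines, those of Lpcat1 and Sftpd reaching 0.00 and 0.01 at their upper ends.

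The largest spread of a member in lung, that of Sftpc, followed the slide. Each slide carried several arrays, 3 slides held the 18 lung arrays and each held D0, D1, D2 and D3 arrays, except that slide 1 held none of D2. Sftpc lay between 7.66 and 7.95 on the 6 arrays of slide 3 and between 8.24 and 8.80 on the 12 others, with no overlap. In the fit over all probes with dose as a term, Sftpc was lower on slide 3 by 0.70 (log2 difference -0.70, adjusted p = 0.000967 by limma) and Sftpa1 by 0.39 (-0.39, adjusted p = 0.0118), where 1.1% of probes had an adjusted p of at most 0.05. The other 7 members did not pass, with differences from -0.16 (Sftpb) to 0.32 (Lamp3).

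The slides also differed in the reference channel. The mean Cy3 signal of the Sftpc probe was 2840 on slide 3 against 1611 and 1235 on slides 1 and 2, while its mean Cy5 signal was 389596 against 450588 and 385415. By Cy5 alone, Sftpc differed between slide 3 and the others by 0.08 (adjusted p = 0.490), and Sftpa1 was higher on slide 3 by 0.31 (adjusted p = 0.0189), as were Sftpb by 0.47, Sftpd by 0.43 and Slc34a2 by 0.37, where 11.8% of probes had an adjusted p of at most 0.05. With slide as a block, the residual SD of Sftpc between mice went from 0.40 to 0.15 and that of Sftpa1 from 0.24 to 0.13. The median over all probes went from 0.16 to 0.15.

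Within slides the dose differences of Sftpc were small beside the gap between slides. D3 minus D0 for Sftpc was -0.21 on slide 1 (1 and 2 mice), -0.30 on slide 2 (2 and 1 mice) and 0.10 on slide 3 (2 and 2 mice). Sftpd lay below D0 on each slide, by -0.16, -0.11 and -0.33 on slides 1, 2 and 3, and so did Lpcat1, by -0.30, -0.36 and -0.11, and Abca3, by -0.34, -0.04 and -0.12. The other members changed sign between slides. These within-slide values come from 1 or 2 mice per group and were not tested singly.

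Lung of mice 17 and 19, both D3, stood apart from the other 16 arrays by genes of other tissues. A list of 10 skeletal muscle genes lay 6.11 and 6.26 above its D0 mean in these mice, and between -0.20 and 0.58 in the others. A list of 9 keratinocyte genes lay 4.09 and 4.58 above it, against -0.04 to 0.11 in the others. The summed Cy5 signal of the muscle list was 1250 to 490788 over the D3 arrays and 1230 to 1495 over the D0 arrays, with 10 of 10 genes above background in both mice and 5 or 6 of 10 at D0. Mouse 13, 1 of the 3 D2 lungs, had a summed muscle signal of 71546 with 6 of 10 genes above background, and its Acta1 lay 3.77 above the D0 mean. Without mouse 13, 0 members were called at D2, and Sftpc was at -0.09 ± 0.31 (SE) against D0. The mean of the 9 members lay -0.12 and -0.26 from its D0 mean in mice 17 and 19, and that of 8 alveolar type 1 genes -0.52 and -0.49. The D0 mice lay between -0.17 and 0.12 for the members and between -0.23 and 0.13 for the type 1 genes. The part of the muscle and keratinocyte genes in the members' values was not tested.

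Without mice 17 and 19, 0 of 9 members were called at D3 as well, and the smallest adjusted p was 0.589. The share of all probes called in this fit is not given here, so the count has none to be set beside. The D3 changes then ran from -0.21 ± 0.12 (Sftpd) to 0.24 ± 0.17 (Napsa). Lpcat1 went from -0.22 to -0.08, Lamp3 from -0.05 to 0.18 and Abca3 from -0.16 to 0.02, while Sftpd stayed at -0.21. For Lpcat1, Lamp3 and Abca3 the D3 value thus rested on these 2 mice.

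**Figure D4:**
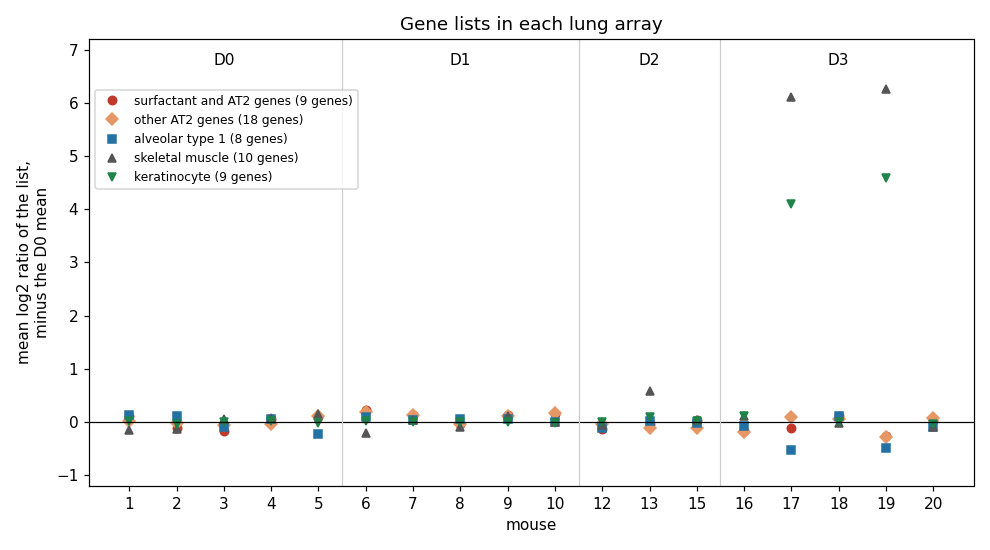
Mean log2 ratio of each gene list minus its mean over the D0 arrays (y axis) for each lung array, ordered by mouse number and dose group (x axis). Skeletal muscle genes lie at 6.11 and 6.26 and keratinocyte genes at 4.09 and 4.58 in mice 17 and 19, while the 9 surfactant and type 2 genes lie between -0.26 and 0.22 in all 18 mice.

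Pairs of members were compared over mice. After the dose means were taken out, Lamp3 and Abca3, the lamellar body pair, had a Pearson r of 0.94 and a Spearman rho of 0.93 over the 18 lung arrays (permutation p = 1e-05 for each, the smallest that 100000 permutations can give; adjusted over 36 pairs, 0.00018). Without the 2 arrays farthest from the median, r was 0.91. Within slide 2 (7 arrays) r was 0.90 (exact permutation p = 0.00913, adjusted p = 0.0999), and within slide 3 (6 arrays) it was 0.97 (exact permutation p = 0.00417, adjusted p = 0.0751). With Cy5 alone it was 0.94 over the 18 arrays.

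Sftpa1 and Sftpc form separate clusters by slide, so their relation is given within slides. Their r was 0.97 within slide 2 (7 arrays, exact permutation p = 0.000397, adjusted p = 0.0143) and 0.83 within slide 3 (6 arrays, exact permutation p = 0.0472, adjusted p = 0.228). Slc34a2 and Lpcat1 had an r of 0.80 within slide 2 and 0.76 within slide 3 (exact permutation p = 0.0276 and 0.0569, adjusted p = 0.124 and 0.228). For Sftpc and Napsa r was -0.10 and -0.04 within the same slides (exact permutation p = 0.827 and 0.919, adjusted p = 0.876 and 0.945). With Cy5 alone, over the 18 arrays, r was 0.53 for Sftpa1 and Sftpc, 0.79 for Slc34a2 and Lpcat1 and 0.41 for Sftpc and Napsa. All pairs share their arrays and the reference channel.

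The genes most like the mean of the 9 members in lung were ranked by Pearson r over the 18 arrays, with dose means taken out, among 12955 other genes measured on every lung array. The 6 highest were Slc4a4 (r = 0.85), Zfp113 (0.84), Zfp184 (0.83), Tmem119 (0.83), Tug1 (0.82) and Enc1 (0.82). With Cy5 alone the same r ranged from 0.07 (Tmem119) to 0.60 (Slc4a4), so the likeness was lower without the reference channel for all 6. They are the highest of many and carry no test.

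Other genes of the type 2 cell and of surfactant lipid were taken from lists and read at D3 in lung by limma, where 0.127% of all probes were called and 16.2% had an unadjusted p of at most 0.05. Of 18 further type 2 genes, 0 were called and 2 were lower than vehicle at an unadjusted p of 0.05 (S100g, -0.35 ± 0.13, and the protease gene Ctsh, -0.24 ± 0.11), with a median of -0.09. Of 8 tested transcription factors of lung epithelium, Nkx2-1, Foxa1, Foxa2, Gata6, Cebpa, Etv5, Elf5 and Grhl2, 0 were called, 1 was lower at an unadjusted p of 0.05 (Foxa2) and the median was -0.10. Nkx2-1 differed by -0.10 ± 0.10 (SE, adjusted p = 0.665). Etv5 and Cebpa stand in both lists. Of 13 genes of surfactant lipid synthesis, 0 were called, and 3 were higher and 1 lower at an unadjusted p of 0.05, with a median of 0.03. The 3 higher ones were the fatty acid synthesis genes Elovl6 (1.01), Acaca (0.40) and Acly (0.32). Without mice 17 and 19 these were 0.095 ± 0.31, 0.12 ± 0.16 and 0.16 ± 0.12 (SE, none at an unadjusted p of 0.05), and the list lay 0.21 and 0.30 above its D0 mean in these mice and between -0.04 and 0.06 in the other D3 mice. Without them Foxa2 went from -0.31 to -0.13 and Ctsh from -0.24 to -0.19, neither then at an unadjusted p of 0.05, while S100g stayed at -0.35. In the other direction, Etv5 went from 0.31 to 0.52 ± 0.16 (SE, unadjusted p = 0.00575, adjusted p = 0.356) and Elovl1, a fatty acid elongase of the lipid synthesis list, from 0.18 to 0.39 ± 0.18 (unadjusted p = 0.0417, adjusted p = 0.489). Without these mice each of the first 3 lists thus had 1 gene higher at an unadjusted p of 0.05, Etv5 counting in both the type 2 and the transcription factor list, and S100g was the only lower one. The 16.2% of probes belongs to the fit with all D3 mice, and the share without mice 17 and 19 is not given here. Of 10 genes of surfactant clearance and its feedback, 0 were called and 1 was lower at an unadjusted p of 0.05 (Abcg1, -0.42, and -0.18 without mice 17 and 19), with a median of -0.13. Lists of so few genes are described by these counts and not set apart from all probes. The median over all 31448 probes was -0.03.

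Markers of the other cells of a lung section also gave 0 calls at D3. The median D3 difference was -0.16 over 8 alveolar type 1 genes, -0.09 over 6 club cell genes, -0.15 over 8 ciliated cell genes, -0.20 over 7 endothelial genes and -0.25 over 6 alveolar macrophage genes. It was 0.20 over 7 fibroblast genes, 0.43 over 7 cardiac muscle genes, 0.45 over 8 lymphocyte genes, 0.14 over 4 hepatocyte genes and 0.08 over 2 glandular stomach genes. Several of these moved when mice 17 and 19 were left out, and the median was then 0.03 for type 1, 0.04 for fibroblast, 0.04 for cardiac muscle, 0.16 for lymphocyte, -0.14 for endothelial, -0.15 for macrophage and -0.20 for glandular stomach genes, and 0.25 over the 3 hepatocyte genes still tested. The fibroblast list lay 0.94 and 0.74 above its D0 mean in these mice and between -0.02 and 0.16 in the other D3 mice, and the lymphocyte list lay 1.27 above it in mouse 19. The cardiac muscle list lay 1.98, 1.88 and 1.04 above it in mice 16, 17 and 19, and -0.56 and -0.73 from it in mice 18 and 20. At an unadjusted p of 0.05, over all 5 D3 mice, 2 alveolar type 1 genes, 1 endothelial and 1 macrophage gene were lower, and 2 fibroblast, 3 lymphocyte and 1 hepatocyte gene were higher. The club, ciliated, cardiac muscle and glandular stomach lists had 0. Without mice 17 and 19 these counts were 0 for endothelial, macrophage and fibroblast genes, 1 higher for lymphocyte and for hepatocyte genes, and 1 lower for ciliated cell genes. For type 1 genes 1 was then lower (Cav1) and 2 were higher, Akap5 at 0.29 ± 0.12 and Emp2 at 0.28 ± 0.11 (SE), against 0.0094 and -0.025 over all 5 mice. The share of all probes at that p without mice 17 and 19 is not given here. No count is given for the skeletal muscle and keratinocyte lists, since mice 17 and 19 stood apart from the other mice on both. Krt13 of the keratinocyte list and Alb of the hepatocyte list passed the filter on dim probes only through mice 17 and 19.

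Named by rule from all the further lists, the lowest at D3 were Chil3 (-0.86 ± 0.40, adjusted p = 0.306), a chitinase-like protein of alveolar macrophages, and Cav1 (-0.75 ± 0.16, adjusted p = 0.0551), the coat protein of caveolae in type 1 and endothelial cells. The highest were Acta1 (3.80 ± 1.64, adjusted p = 0.270), skeletal actin, and Krt13, a keratin of squamous epithelium that would not have passed the filter on dim probes without mice 17 and 19 and is given no test. Mice 17 and 19 alone carried these D3 values of Acta1 and Krt13: Acta1 lay 9.27 and 9.59 above its D0 mean in them and between -0.22 and 0.35 in the other D3 mice, and Krt13 lay 7.94 and 8.28 above it and between 0.06 and 0.21. Krt13 was well above background on 4 of 18 lung arrays. Without these mice Acta1 was at 0.053 ± 0.61, Cav1 at -0.50 ± 0.15 and Chil3 at -0.85 ± 0.47 (SE), and none passed the call.

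In liver, the members that could be tested were Sftpd, Lamp3, Napsa and Abca3, and 0 of 4 were called at D1, D2, D3 or in the trend, where 0% of probes were called. At an unadjusted p of 0.05 the count was 0 of 4 in each, beside 3.61%, 3.79%, 4.79% and 5.43% of probes. At D3 the changes ran from 0.03 (Abca3) to 0.14 (Sftpd). Sftpd in liver was 0.72, 1.12, 1.31, 1.37 and 1.60 at D0 and 0.87, 1.21, 1.40, 1.57 and 1.77 at D3, groups that overlapped, with a change of 0.14 ± 0.22 (SE, adjusted p = 1 by limma).

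In forestomach, Lpcat1 could be tested as well, and 0 of 5 members were called at any dose, where 0% of probes were called at D1 and D2 and 0.00728% at D3, or in the trend, where 0.04% were. At an unadjusted p of 0.05 the count was 0, 1 and 0 of 5 at D1, D2 and D3 and 1 of 5 for the trend, beside 4.16%, 7.53%, 9.24% and 9.18% of probes. Abca3 had the largest change relative to its error. It was -0.71, -0.07, 0.09, 0.12 and 0.73 at D0 and 0.53, 0.69, 0.69 and 0.73 at D2, a change of 0.62 ± 0.20 (SE, unadjusted p = 0.00702, adjusted p = 0.514 by limma). At D3 it was 0.29, 0.32, 0.34, 0.36 and 0.70, a change of 0.37 ± 0.19 (adjusted p = 0.597). Mouse 3 at D0 lay level with the highest D2 mouse, at 0.73, and mouse 4 at D0 lay lowest.

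Sftpd in forestomach ranged widely within every dose group. It was -0.16, 0.07, 1.11, 1.53 and 3.69 at D0, -0.27, -0.27, -0.20, 1.37 and 3.55 at D1, 0.52, 1.71, 2.40 and 3.90 at D2, and -0.21, -0.13, -0.04, 0.17 and 3.33 at D3. The change at D3 was -0.62 ± 0.90 (SE, adjusted p = 0.902 by limma) and the residual SD was 1.55, at the 99.3 percentile of all probes tested in forestomach. The second Sftpd probe moved with the first, between -0.20 and 1.68, and was well above background on 6 arrays.

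A list of 8 genes of the glandular stomach, the part that borders the forestomach, was high in the mice with high Sftpd and low in most of the others, with mouse 15 as an exception. It covers parietal cell proton pump subunits, pepsinogen, gastrokines, trefoil factors and the surface mucin. In D0 mice 2, 3 and 5 the list lay 2.65, 1.87 and 1.66 above its D0 mean and Sftpd was 3.69, 1.11 and 1.53, whereas in mice 1 and 4 the list lay at -2.83 and -3.35 and Sftpd at -0.16 and 0.07. Mouse 19 was the only D3 mouse with the list above its D0 mean, at 2.81, and had the only D3 Sftpd value above background, 3.33. In mice 11, 12, 13 and 15, all D2, the list lay at 1.55, 2.76, 1.34 and 1.20 with 8 of 8 genes above background, and Sftpd was 1.71, 3.90, 2.40 and 0.52. In mouse 15 the Sftpd spot was not well above background although the list was high. The summed Cy5 signal of the list was 739 to 1325106 at D0 and 802 to 1037876 at D3. The 4 highest Sftpd values, of mice 2, 10, 12 and 19, were all on slide 3, the slide with the brighter arrays, and the residual SD went from 1.55 to 1.26 with slide as a block. Within slide 3, mice 6 and 20, with the list below its D0 mean, had Sftpd at -0.20 and -0.21, and mouse 5, with the list above it, at 1.53. The part of these genes and of the slide in the Sftpd values was not tested.

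**Figure D5:**
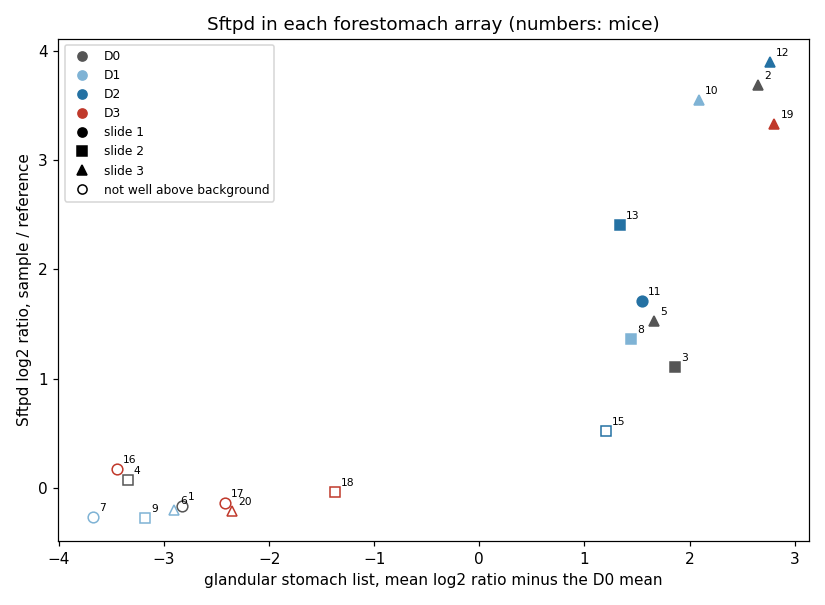
Sftpd log2 ratio of sample over reference (y axis) against the mean log2 ratio of 8 glandular stomach genes minus its D0 mean (x axis) for the 19 forestomach arrays, coloured by dose, shaped by slide and labelled by mouse. Mice 1, 4, 6, 7, 9, 16, 17, 18 and 20 lie at lower left, with Sftpd at 0.17 or less, and mouse 12 has the highest Sftpd ratio, 3.90.

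Napsa in forestomach followed the slide. It was -2.91 to -1.94 on the 7 arrays of slide 3 and -1.54 to -0.47 on the other arrays, and its residual SD went from 0.90 to 0.29 with slide as a block.

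The D3 effect was last compared between tissues in 1 fit of all 56 arrays. For lung minus liver 0 of 4 members were called, where 0% of probes were called and 0 passed an unadjusted p of 0.05 (4.62% of probes), with differences from -0.34 ± 0.80 (Sftpd) to 0.05 ± 0.48 (Napsa). For lung minus forestomach 0 of 5 were called, where 0.949% were called, and 1 of 5 passed an unadjusted p of 0.05, beside 14% of probes. Abca3 had the smallest adjusted p, with a difference of -0.53 ± 0.20 (SE, unadjusted p = 0.0133, adjusted p = 0.193 by limma). Without forestomach D0 mouse 3 this became -0.70 ± 0.19 (adjusted p = 0.0275) and 1 member was called. Without lung mice 17 and 19 it was 0 again, with a smallest adjusted p of 0.632.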

How the data were processed

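RNA of 56 samples was hybridised to Agilent 2-colour arrays against a universal reference (Cy5 sample, Cy3 reference, no dye swap). The deposited scanner files hold median intensity per spot, from Feature Extraction 10.7.3.1, without background subtraction. The authors also deposited log2 ratios after LOWESS within each array, without background subtraction, and these were the main values here. Their scale was checked against ratios computed from the scanner files, with r between 0.977 and 0.998 and slopes of 1.00. Flags for signal well above background and saturation are 0 or 1 scores per the file headers. The 55681 probes (3671 control spots left out) were named through RefSeq accessions (GRCm38.p6), which named 26413. The array design cites build mm9, so no coordinates are given other than those of the printed promoter windows, which are of GRCm38.p6.

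Within a tissue, probes were tested if 3 or more of its arrays had Cy5 well above background. limma 3.58.1 (R 4.3.3; lmFit, eBayes, two-sided, Benjamini-Hochberg over all probes) was used in place of the MAANOVA Fs test of the study's methods. The number of arrays limits the precision. The fit was tested on simulated data. All 9 members are named, and of the other lists the 2 highest and 2 lowest at D3 in lung. The lists were the members, further alveolar type 2 genes, lung transcription factors, surfactant lipid synthesis, surfactant clearance, alveolar type 1, club, ciliated, endothelial, alveolar macrophage, fibroblast, skeletal muscle, cardiac muscle, keratinocyte, hepatocyte, glandular stomach and lymphocyte genes. Members and lists were chosen with earlier results of these data known.

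Mouse numbers tie the tissues of 1 animal. The deviations of the same mouse correlated with a median r of 0.12 between lung and liver, 0.02 between lung and forestomach and 0.06 between liver and forestomach. Alternatives concerned the normalization, the channel, the filter, the probes, the slide, the array column, array weights, the mouse as a block and left-out mice.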

Additional observations from a re-analysis of the deposited data

Results flagged for a closer look

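Over 66 groups of 4 or 5 arrays in which a member was above background on at least 1 array, 3 held 1 array farther from the rest than a Dixon test at the 95% level allows, where chance gives about 1 in 20, or 3.3. All 3 were in forestomach. Sftpd of mouse 19 at D3 had a log2 ratio of 3.33, against 0.17 for the next mouse and -0.21 for the lowest. Lpcat1 of mouse 12 at D2 was -0.83, against -0.41 for the next and -0.35 for the highest, and was the only one of these 4 arrays above background. Abca3 of mouse 18 at D3 was 0.70, against 0.36 for the next and 0.29 for the lowest.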

How the results depend on the processing

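In lung, liver and forestomach 0 members were called at D1, D2, D3 or in the trend under every alternative run, and 9 were called higher in lung than in liver and than in forestomach. With mouse as a replicate block, the counts over all arrays were the same, 9, 9 and 1 between tissues (smallest adjusted p 2.01e-44, 9.82e-43 and 2.11e-06) and 0 and 0 for the D3 effect, and the block changed no call. With Cy5 alone 2 members were called between vehicle liver and forestomach. For the D3 effect of lung minus forestomach, leaving out 1 mouse at a time gave 0 to 1 calls, the 1 without forestomach D0 mouse 3. Slide as a block without mice 17 and 19, and Cy5 alone with slide as a block, were chosen after seeing the data, as was reading the gene lists without mice 17 and 19. The small lung fold changes of single members, none of them called, changed sign as follows (log2), and the cause was not tested.

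Median centring without loess gave Lpcat1 0.28 at D1, Sftpa1 0.16, Sftpb 0.10, Sftpd 0.053, Slc34a2 0.089, Lpcat1 0.13 and Abca3 0.18 at D2, and Sftpa1 0.21, Sftpb 0.16, Sftpc 0.22, Sftpd 0.084, Lamp3 0.17, Slc34a2 0.17, Lpcat1 0.024 and Abca3 0.076 at D3. Array column nearly follows dose in lung, apart from D2 mouse 12 in column 4 and D3 mouse 16 in column 3, so column and dose can hardly be told apart. As a covariate it gave Lpcat1 0.083 at D1, Sftpa1 0.11, Sftpb 0.057, Lamp3 -0.35, Napsa -0.33 and Lpcat1 0.23 at D2, and Sftpa1 0.16, Sftpb 0.14, Sftpc 0.31, Napsa -0.39 and Lpcat1 0.16 at D3. Cy5 alone gave Sftpa1 -0.025, Sftpc -0.22 and Sftpd -0.14 at D1, Sftpc -0.19 and Slc34a2 0.087 at D2, and Sftpb 0.019 at D3. Cy5 alone with slide as a block gave Sftpc -0.20, Sftpd -0.056 and Lpcat1 0.059 at D1, Sftpb 0.070, Sftpc -0.19, Slc34a2 0.12 and Lpcat1 0.039 at D2, and Sftpb 0.083 at D3. Slide as a block gave Sftpd -0.0094 at D1 and Sftpc -0.11 at D2. Slide as a block without mice 17 and 19 gave Sftpa1 -0.0041 and Sftpd -0.011 at D1, Sftpc -0.11 at D2, and Sftpa1 0.0087, Sftpb 0.044, Sftpc 0.055 and Lamp3 0.11 at D3. Loess from the scanner files gave Sftpc -0.0084 at D2 and Slc34a2 0.015 at D3. Normexp correction gave Sftpc -0.0093 at D2 and Slc34a2 0.013 at D3. The mean over probes gave Sftpd -0.015 at D1. Array weights gave Lamp3 0.090 at D3. Leaving out mice 17 and 19 gave Lamp3 0.18 and Abca3 0.023 at D3.

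Leaving out 1 mouse at a time gave ranges across 0 for Sftpa1 -0.025 to 0.18, Sftpd -0.042 to 0.088 and Lpcat1 -0.11 to 0.026 at D1, for Sftpa1 -0.17 to 0.12, Sftpc -0.18 to 0.31, Lamp3 -0.047 to 0.15, Napsa -0.054 to 0.20 and Abca3 -0.076 to 0.047 at D2, and for Sftpa1 -0.15 to 0.051, Sftpb -0.084 to 0.014, Sftpc -0.19 to 0.090, Lamp3 -0.18 to 0.099, Napsa -0.0041 to 0.15 and Slc34a2 -0.16 to 0.020 at D3. At D3 the same ranges stayed below 0 for Sftpd (-0.26 to -0.12), Lpcat1 (-0.27 to -0.15) and Abca3 (-0.24 to -0.074). All members were well above background in lung, where the number of mice limits the precision. Outside lung, 5 members in liver and 4 in forestomach were too dim to test.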
